A study of Rattus norvegicus with 10 samples.

Results

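Messenger RNA of 9 core enzymes of the citric acid cycle was compared in fetal rat hearts from control and hyperglycemic pregnancies. The genes were taken by symbol from the deposited expression values: Cs (NCBI Gene 170587), Idh2 (361596), Idh3a (114096), Idh3g (25179), Ogdh (360975), Dlst (299201), Sucla2 (361071), Suclg1 (114597) and Mdh2 (81829), all of them nuclear genes whose proteins work in the mitochondrial matrix. All 9 were found among the 18025 genes listed, all 9 carried the citrate cycle pathway in the annotation that the authors attached, and all 9 were among the 14542 genes that passed a filter at a mean of 0.1 FPKM. FPKM are reads divided by the length of the gene and by the size of the library, so that levels can be compared between genes.

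The hearts were taken at embryonic day 19.5 from wild-type Sprague-Dawley fetuses, 5 libraries for the control (CON) group and 5 for the hyperglycemia (HG) group. Dams of the HG group had been injected on 3 days in a row with streptozotocin (STZ), which destroys the insulin-producing cells of the pancreas, and dams of the CON group with the citric acid buffer alone. Injections are described for the dams alone, so that the groups differ in the treatment of the dam. An effect of STZ itself on the fetus cannot be told apart from that of the maternal glucose. Neither the sex of the fetuses nor their dam or litter is given, so that the p-values measure the spread between these libraries, and hearts that share a litter may be among them. The labels and the text of the study speak of hearts, whereas 1 figure legend speaks of isolated cardiomyocytes. The methods mention a library of pooled RNA although the values differ from library to library.

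The citric acid cycle oxidizes the acetyl group of acetyl-CoA, which comes mainly from pyruvate and fatty acids, to carbon dioxide. The electrons are passed to NADH and reduced flavin, which feed the respiratory chain, and 1 step makes GTP or ATP directly. The adult heart depends on this cycle for most of its ATP, through the respiratory chain, while the fetal heart relies more on glycolysis and turns towards mitochondrial oxidation around birth.

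All 9 enzymes had less mRNA in HG hearts than in CON hearts, and for each of them every HG library lay below every CON library. By the fitted fold changes, HG stood at between 73.8% (Ogdh) and 87.2% (Suclg1) of CON. All 9 passed the test across all genes in limma at a Benjamini-Hochberg adjusted p under 0.05 as lower in HG, where 11.8% of all genes tested were called lower and 28.4% higher. Groups that did not overlap, with HG below CON, were found for 8.12% of all genes tested. None of the 9 reached an absolute log2 fold change above 1 together with an adjusted p under 0.05, as 1.94% of all genes did. The 9 log2 fold changes ran from -0.44 to -0.20 with a median of -0.29, beside a median of 0.09 over all genes tested. These are bulk libraries, in which fewer cardiomyocytes and less of an mRNA per cardiomyocyte cannot be told apart.

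**Figure D1:**
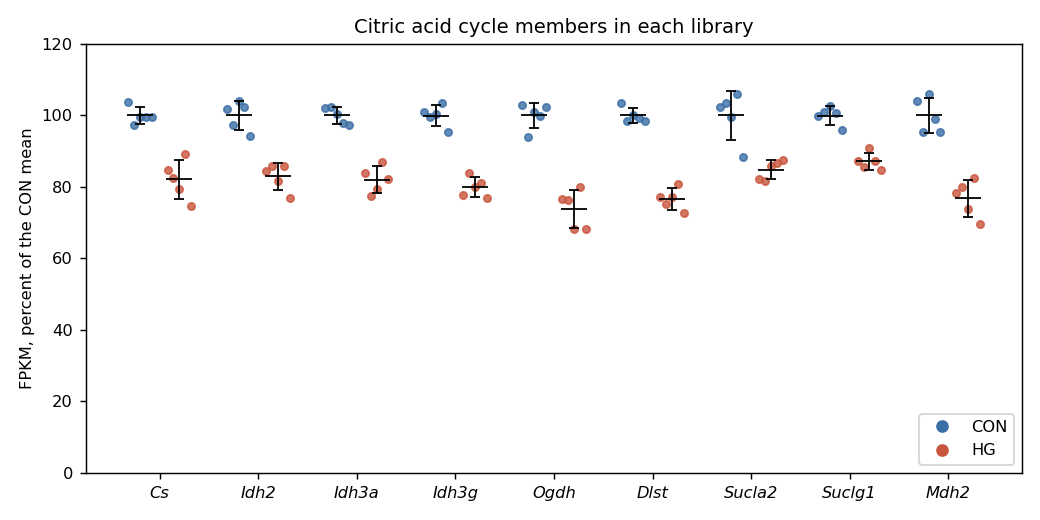
FPKM of the 9 enzymes in each library, as a percentage of the mean of the 5 CON libraries (vertical axis, from 0), with CON in blue and HG in red. Points are libraries, long horizontal lines are group means and bars are 1 SD. For every enzyme the 5 HG points lie below the 5 CON points, with the narrowest gap at Sucla2, whose CON 5 library stands at 88.4%.

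The levels themselves spanned a wide range. In CON hearts Idh2 was the most abundant of the 9 at 1189 ± 48.1 FPKM (mean ± SD, n = 5, as in the values that follow), then Mdh2 at 705.6 ± 34.5 and Cs at 316.6 ± 7.35. Idh3g, Suclg1, Ogdh, Dlst, Idh3a and Sucla2 followed in this order between 229.5 ± 6.83 and 96.5 ± 6.69 FPKM. Among neighbours in this order, only the CON libraries of Idh3g and Suclg1 overlapped. In HG hearts the same 3 genes led and Sucla2 was again the lowest, with Suclg1 and Idh3g in the reverse order. There the libraries of Suclg1 and Idh3g overlapped, as did those of Dlst and Idh3a. Each of these values rested on at least 2954 reads in a library, and on up to 37110 for Idh2.

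Citrate synthase (Cs) opens the cycle by joining acetyl-CoA to oxaloacetate. Cs stood at 328.6, 308.3, 315.3, 315.6 and 315.1 FPKM in CON 1 to 5 and at 268.6, 260.8, 251.2, 282.1 and 236.8 FPKM in HG 1 to 5. The lowest CON library thus lay above the highest HG library, and the HG libraries were more widely spread (SD 17.2 against 7.35 FPKM). The log2 fold change was -0.29 ± 0.04 (SE), with a 95% confidence interval of -0.38 to -0.19 and a limma adjusted p of 0.000377.

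Isocitrate is oxidized to 2-oxoglutarate by 2 different matrix enzymes. The NAD-dependent enzyme, which is regulated by ADP and calcium and is counted as the one of the cycle proper, is built from the catalytic subunit Idh3a and the subunits Idh3b and Idh3g, while the NADP-dependent Idh2 is a separate protein that also serves to supply NADPH. Idh3a had 158.5, 159.1, 156.2, 152.1 and 151.1 FPKM in CON 1 to 5 and 130.2, 120.5, 123.6, 135.3 and 128.0 FPKM in HG 1 to 5. Idh3g had 231.6, 228.4, 230.6, 237.9 and 219.1 FPKM in the CON libraries and 178.3, 192.3, 183.5, 186.2 and 176.2 FPKM in the HG libraries. Both subunits were lower in HG without overlap, with log2 fold changes of -0.29 ± 0.04 (SE, adjusted p = 9.44e-05) for Idh3a and -0.32 ± 0.03 (adjusted p = 2.92e-05) for Idh3g.

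Idh2 had 1211, 1159, 1237, 1219 and 1121 FPKM in CON 1 to 5, against 1006, 1021, 971.7, 1020 and 913.1 FPKM in HG 1 to 5. Its lowest CON library was CON 5 and its lowest HG library HG 5, and the groups did not overlap. The log2 fold change was -0.27 ± 0.04 (SE), with a 95% confidence interval of -0.37 to -0.17 and a limma adjusted p of 0.000499. Idh3b fell together with its partners, from 182.6 ± 6.63 to 145.2 ± 4.02 FPKM (-0.33 on the log2 scale, adjusted p = 2.43e-05).

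No difference between groups passed the test in the proportions of the 3 subunits of the NAD-dependent enzyme. The log2 ratio of Idh3a to Idh3g was -0.56 ± 0.05 (SD) in CON and -0.52 ± 0.10 in HG (two-sided exact permutation test, adjusted p = 0.495 over the 30 ratios tested). Those of Idh3a and Idh3g to Idh3b differed by 0.04 (adjusted p = 0.329) and 0.01 (adjusted p = 0.913) on the log2 scale in exact permutation tests. Between the enzymes, the ratio of Idh2 to Idh3a was 7.64 in CON and 7.73 in HG (exact permutation test, adjusted p = 0.796). A p above the threshold does not show that these ratios are the same, but the group means differed by less than the SD between HG libraries.

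The 2-oxoglutarate dehydrogenase complex makes succinyl-CoA and is held to be 1 of the main control points of the cycle. It is built from the decarboxylase Ogdh, the succinyltransferase Dlst and the dihydrolipoyl dehydrogenase Dld, the last of which is shared with the pyruvate dehydrogenase complex. Ogdh had the largest fold change of the 9 enzymes, going from 210.6, 192.8, 207.1, 204.5 and 209.7 FPKM in CON 1 to 5 to 157.1, 156.3, 140.0, 164.1 and 139.8 FPKM in HG 1 to 5. The groups were separated by 28.7 FPKM, the distance from the lowest CON library (CON 2) to the highest HG library (HG 4). Its log2 fold change was -0.44 ± 0.05 (SE), with a 95% confidence interval of -0.55 to -0.33 and a limma adjusted p of 4.10e-05.

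Dlst had the smallest adjusted p of the 9 enzymes. It stood at 177.3, 168.8, 171.4, 169.9 and 168.8 FPKM in CON 1 to 5 and at 132.1, 128.8, 132.4, 138.2 and 124.5 FPKM in HG 1 to 5, both groups being tight and far apart. The log2 fold change was -0.38 ± 0.03 (SE), with a 95% confidence interval of -0.46 to -0.31 and a limma adjusted p of 7.07e-06. Dld fell from 103.1 ± 6.82 to 82.4 ± 4.91 FPKM (-0.32 on the log2 scale, adjusted p = 0.000493). The log2 ratio of Ogdh to Dlst was 0.26 ± 0.04 (SD) in CON and 0.20 ± 0.08 in HG (exact permutation test, adjusted p = 0.329), and that of Dlst to Dld differed by -0.06 (exact permutation test, adjusted p = 0.373).

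Succinyl-CoA synthetase carries out the step that yields a nucleotide triphosphate. Its alpha subunit Suclg1 pairs either with Sucla2, giving the ATP-forming enzyme, or with Suclg2, giving the GTP-forming enzyme. Suclg1 had the smallest fold change of the 9 enzymes, going from 220.4, 223.1, 226.9, 222.1 and 211.6 FPKM in CON 1 to 5 to 192.6, 188.8, 201.0, 192.7 and 187.0 FPKM in HG 1 to 5. The groups still did not overlap, and the log2 fold change of -0.20 ± 0.03 (SE) had a 95% confidence interval of -0.27 to -0.13 and a limma adjusted p of 0.000488.

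Sucla2 was the closest to overlap. It had 98.9, 100, 96.1, 102.4 and 85.3 FPKM in CON 1 to 5 and 79.4, 79.0, 82.9, 83.7 and 84.6 FPKM in HG 1 to 5, so that CON 5 lay just above HG 5 and well below the other CON libraries. The log2 fold change of -0.23 ± 0.05 (SE) had the largest adjusted p of the 9, 0.00225, and was -0.28 with CON 5 left out. Sucla2 was also the only one of the 9 in which HG 5 was the highest of the HG libraries.

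Suclg2, the GTP-forming partner, was the only one of the 17 cycle genes examined that was not called. It had 106.1, 111.7, 103.5, 102.1 and 97.9 FPKM in CON 1 to 5 and 93.4, 93.7, 99.0, 103.9 and 110.8 FPKM in HG 1 to 5, and the groups overlapped widely. The log2 fold change was -0.06 with a 95% confidence interval of -0.17 to 0.05 (limma, adjusted p = 0.395), and it was called lower at -0.15 (adjusted p = 0.0372) when the libraries were scaled by median-of-ratios factors. The log2 ratio of Sucla2 to Suclg2, which does not depend on that scaling, was -0.11 ± 0.08 (SD) in CON and -0.29 ± 0.06 in HG without overlap. This difference of -0.18 had an adjusted p of 0.0217 in the exact permutation test, which is the smallest that 5 against 5 libraries can give here. That of Suclg1 to Suclg2 differed by -0.14 with overlap and did not pass (exact permutation test, p = 0.0476, adjusted p = 0.102), and Suclg1 to Sucla2 differed by 0.04 (exact permutation test, adjusted p = 0.495).

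The steps from succinate to malate hold none of the 9 enzymes and were lower in HG as well. Succinate dehydrogenase, which is also complex II of the respiratory chain, fell in all 4 subunits, with log2 fold changes of -0.34 for Sdha, -0.31 for Sdhb, -0.28 for Sdhc and -0.30 for Sdhd. Fumarase (Fh) fell from 185.5 ± 9.30 to 144.0 ± 5.02 FPKM (-0.36 on the log2 scale). The adjusted p of these 5 genes in limma was between 2.74e-05 (Sdhb) and 0.000321 (Sdhc), and none of them overlapped between groups.

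Malate dehydrogenase (Mdh2) closes the cycle by returning malate to oxaloacetate and is also the matrix end of the malate-aspartate shuttle, which carries electrons of cytosolic NADH into mitochondria. Mdh2 had 734.6, 673.5, 747.8, 699.5 and 672.8 FPKM in CON 1 to 5 and 551.8, 565.0, 521.3, 581.3 and 490.7 FPKM in HG 1 to 5. The highest HG library (HG 4) stayed well below the lowest CON library (CON 5), and HG 5 was the lowest of all 10. Its log2 fold change was -0.38 ± 0.05 (SE), with a 95% confidence interval of -0.49 to -0.27 and a limma adjusted p of 0.000138.

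**Figure D2:**
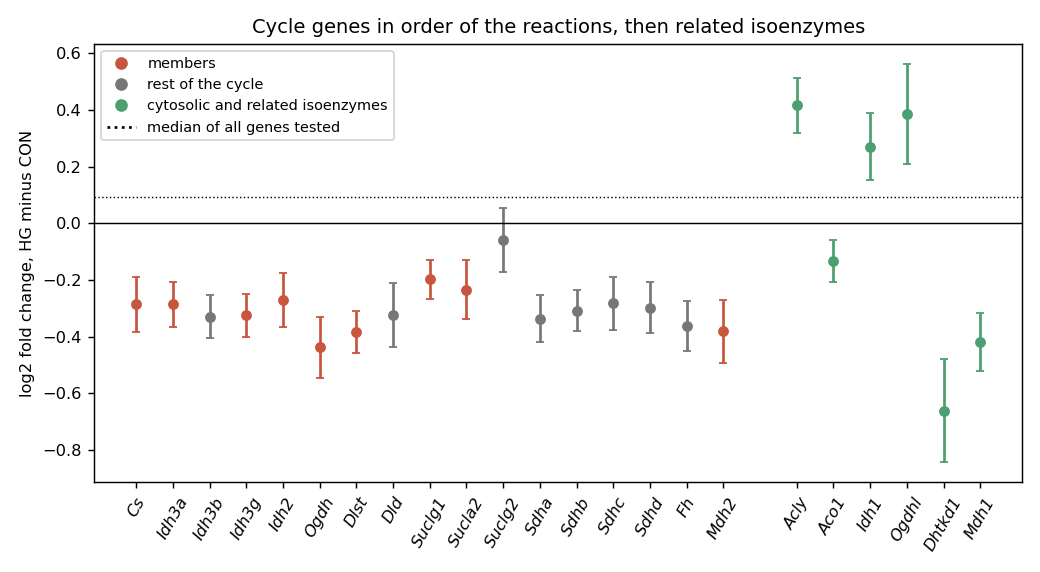
Log2 fold change (HG minus CON, vertical axis) of 17 genes of the cycle in the order of the reactions, followed by related isoenzymes. Points are estimates of the fit across all genes and bars their 95% confidence intervals, red for the 9 enzymes, grey for the rest of the cycle and green for isoenzymes. The dotted line is the median of all genes tested at 0.09, and of these 17 only Suclg2 has an interval that reaches 0.

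Counted over 8 other genes of the cycle (Idh3b, Dld, Suclg2, the 4 Sdh subunits and Fh), 7 were called lower and 0 higher, with a median log2 fold change of -0.32. Cytosolic counterparts and other relatives of the cycle enzymes moved in different directions. ATP citrate lyase (Acly), which splits citrate in the cytosol and so runs against Cs, rose from 32.4 ± 1.87 to 43.2 ± 1.57 FPKM (0.42 on the log2 scale, adjusted p = 2.83e-05). Cytosolic Idh1 rose from 18.7 ± 0.608 to 22.7 ± 1.86 FPKM (0.27 on the log2 scale, adjusted p = 0.00202). Both rises were without overlap between groups.

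Cytosolic malate dehydrogenase (Mdh1) fell about as much as Mdh2, from 767.6 ± 26.8 to 575.0 ± 38.0 FPKM (-0.42 on the log2 scale, adjusted p = 4.30e-05). The cytosolic aconitase Aco1, which also serves as an iron-responsive RNA-binding protein, fell from 27.8 ± 0.580 to 25.3 ± 0.629 FPKM (-0.13 on the log2 scale, adjusted p = 0.00759). It was lower without overlap, by less than any of the 9 enzymes. Of the relatives of Ogdh, Ogdhl rose from 8.40 ± 1.14 to 10.9 ± 0.671 FPKM (0.39 on the log2 scale, adjusted p = 0.00264) with overlap, since CON 4 stood at 10.4 FPKM. Dhtkd1, which acts in lysine breakdown, fell from 3.18 ± 0.173 to 1.98 ± 0.209 FPKM (-0.66 on the log2 scale, adjusted p = 9.20e-05).

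The balance between a matrix enzyme and its cytosolic counterpart was compared within each library. Idh2 mRNA was 63.1 times that of Idh1 in CON and 43.4 times in HG, a difference of -0.54 on the log2 scale without overlap (exact permutation test, adjusted p = 0.0217). Cs mRNA was 9.76 times that of Acly in CON and 5.99 times in HG, a difference of -0.70 on the log2 scale without overlap (exact permutation test, adjusted p = 0.0217). The ratio of Mdh2 to Mdh1 was 0.919 in CON and 0.943 in HG, a difference of 0.04 on the log2 scale that did not pass (exact permutation test, adjusted p = 0.706). In all, 12 ratios between genes were tested, and the 3 that passed were Sucla2 to Suclg2, Idh2 to Idh1 and Cs to Acly. Idh2 and Cs were lower and Idh1 and Acly higher in HG, each without overlap. The ratios of Idh2 to Idh1 and Cs to Acly therefore had to separate, and their p-values add nothing to those of the single genes.

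**Figure D3:**
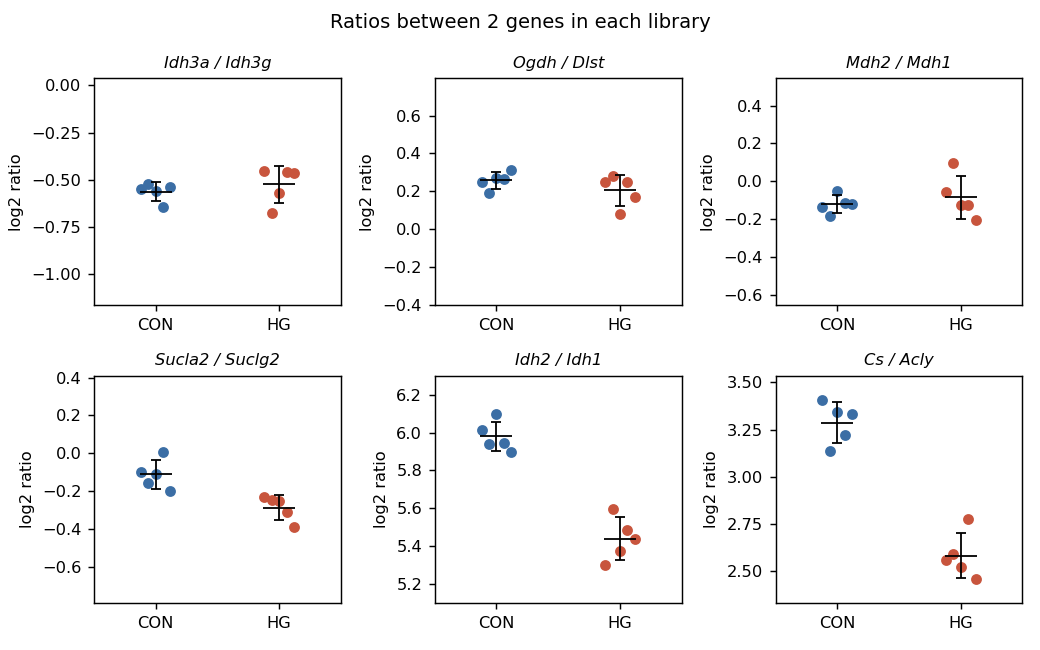
Log2 ratio of the FPKM of 1 gene to that of another in each library (vertical axis, a separate range in each panel), CON in blue and HG in red, with the mean and 1 SD. In the upper row (Idh3a to Idh3g, Ogdh to Dlst, Mdh2 to Mdh1) the groups overlap, and in the lower row (Sucla2 to Suclg2, Idh2 to Idh1, Cs to Acly) every HG library lies below every CON library.

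Within the groups, the same libraries were low for most of the 9 enzymes. Their summed level was between 3154 and 3388 FPKM in CON and between 2481 and 2783 FPKM in HG. HG 5, which has the fewest reads on genes of all libraries, was the lowest of all 10 for 7 of the 9 enzymes, and HG 2 for the other 2 (Idh3a and Sucla2). CON 5 was the lowest CON library for 7 of the 9, and HG 4 the highest HG library for 5 of the 9. With HG 5 left out, the log2 fold changes were still between -0.41 (Ogdh) and -0.19 (Suclg1).

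The genes whose course over the 10 libraries was nearest to the mean of the 9 enzymes were searched among the 11700 genes that averaged 1 FPKM or more, by the root mean square difference of centred log2 values. They were Mpst, a mitochondrial and cytosolic sulfurtransferase (0.0241), the complex I subunit Ndufa11 (0.0243), the ATP synthase subunit Atp5f1b (0.0292), the complex I subunit Ndufa9 (0.0298) and the aspartate aminotransferase Got1 (0.0313). The median over all genes searched was 0.242. The distances of the 9 enzymes, each from the mean of the other enzymes, ran from 0.0386 (Idh2) to 0.0938 (Ogdh). Those of the 5 genes were taken from the mean of all 9, and these genes were picked as the nearest, so that the distances are not like for like. This measure was used to rank genes and carries no test.

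RefSeq promoter sequences were at hand for 8 of the 9 enzymes, all but Idh3a, with 250 bases before the start site in the rat assembly GRCr8. These differ from the build of the expression values (mRatBN7.2), so that only the sequence is used. They had between 51.6% and 68.8% G and C (median 60.8%) and between 14 and 26 CpG (median 18), where the 11733 promoters of genes tested had medians of 59.6% and 15. The 4 that hold a motif searched for are shown 5′ to 3′ on the strand of the gene, with the motif in capitals and the last base just before the start site. The promoter of Idh3g lies at chrX:156675483-156675732 (minus strand), that of Ogdh at chr14:85363781-85364030 (plus strand), that of Dlst at chr6:110489456-110489705 (plus strand) and that of Mdh2 at chr12:26543842-26544091 (minus strand).
Idh3g: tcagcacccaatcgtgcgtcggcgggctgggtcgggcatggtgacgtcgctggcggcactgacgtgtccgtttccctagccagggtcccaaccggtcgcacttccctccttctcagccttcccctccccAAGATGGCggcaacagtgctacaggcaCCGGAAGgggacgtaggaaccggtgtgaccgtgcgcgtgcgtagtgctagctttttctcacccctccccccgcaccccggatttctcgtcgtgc
Ogdh: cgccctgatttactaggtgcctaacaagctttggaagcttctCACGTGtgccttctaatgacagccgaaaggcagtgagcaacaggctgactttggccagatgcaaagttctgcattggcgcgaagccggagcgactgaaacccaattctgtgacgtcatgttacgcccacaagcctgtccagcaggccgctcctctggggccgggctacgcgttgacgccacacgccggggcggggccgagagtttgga
Dlst: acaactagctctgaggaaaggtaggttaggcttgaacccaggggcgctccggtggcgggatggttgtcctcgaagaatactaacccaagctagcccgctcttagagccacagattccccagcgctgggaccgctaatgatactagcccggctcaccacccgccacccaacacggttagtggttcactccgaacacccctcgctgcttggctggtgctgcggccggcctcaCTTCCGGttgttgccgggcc
Mdh2: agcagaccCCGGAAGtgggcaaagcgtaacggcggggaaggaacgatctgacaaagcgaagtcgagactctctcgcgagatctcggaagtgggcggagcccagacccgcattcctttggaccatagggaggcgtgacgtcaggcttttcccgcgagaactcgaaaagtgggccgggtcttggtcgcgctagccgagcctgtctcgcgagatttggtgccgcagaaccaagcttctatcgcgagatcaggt

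The core of the ETS site bound by GABP (CCGGAAG, either strand), a factor known for driving nuclear genes of mitochondrial proteins, was present in 3 of the 8 promoters. It began 94 bases before the start in Idh3g and 242 bases before it in Mdh2, and it stood on the opposite strand, as CTTCCGG, 20 bases before the start in Dlst. The same letters were found in 13.9% of promoters of genes tested. Idh3g also held the YY1 motif AAGATGGC 121 bases before the start (2.08% of promoters of genes tested), and Ogdh held the E-box CACGTG 208 bases before it (7.88%). The site of estrogen-related receptors (AAGGTCA, 2.49%) and the core of NRF1 (CGCATGCG, 3.09%) were matched in 0 of the 8, which says only that these letters are absent from these windows. None of these matches is a measured binding site.

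Of the transcriptional regulators of mitochondrial genes that were listed, 3 of 9 were called lower and 2 higher, with a median log2 fold change of -0.10. The shares over all genes tested were 11.8% lower and 28.4% higher. Perm1, a muscle regulator that acts with estrogen-related receptors, fell from 17.2 ± 1.86 to 5.72 ± 0.844 FPKM (-1.57 on the log2 scale, adjusted p = 1.09e-06). Ppara, the fatty acid receptor that drives genes of fatty acid oxidation, fell from 9.37 ± 1.14 to 4.96 ± 0.518 FPKM (-0.90 on the log2 scale, adjusted p = 2.50e-05). Esrra, an estrogen-related receptor, fell from 39.2 ± 1.93 to 31.8 ± 1.49 FPKM (-0.30 on the log2 scale, limma adjusted p = 0.000269). The other such receptors listed, Esrrb and Esrrg, were not called. Gabpa, a GABP subunit, rose from 11.2 ± 0.532 to 13.5 ± 0.933 FPKM (0.26 on the log2 scale, adjusted p = 0.00301), and Nrf1 from 3.51 ± 0.201 to 4.01 ± 0.152 FPKM (0.19 on the log2 scale, adjusted p = 0.0326). The call of Nrf1 was lost in 10 of 22 alternative settings.

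Genes of pyruvate entry, with regulators of pyruvate dehydrogenase among them, moved in both directions, and those of fatty acid oxidation in 1. Of 13 genes of pyruvate entry, 9 were called lower and 3 higher (median log2 fold change -0.27). The pyruvate carrier subunit Mpc1 fell from 112.5 ± 8.23 to 67.0 ± 3.57 FPKM (-0.75 on the log2 scale, adjusted p = 1.68e-06). Among the kinases that switch off pyruvate dehydrogenase, Pdk2 fell from 49.2 ± 2.72 to 28.8 ± 3.05 FPKM (-0.77 on the log2 scale, adjusted p = 6.29e-06) and Pdk4 rose from 9.20 ± 1.08 to 14.1 ± 1.30 FPKM (0.61 on the log2 scale, adjusted p = 0.000166). The other genes called higher were also such kinases, Pdk1 (log2 fold change 0.16, limma adjusted p = 0.00171) and Pdk3 (0.20, adjusted p = 0.0212). Pdk1 lost its call under median-of-ratios factors. The listed subunits of the pyruvate carrier and of pyruvate dehydrogenase were all called lower. Of 15 genes of fatty acid oxidation, 14 were called lower and 0 higher, with a median of -0.25, Echs1 (log2 fold change -0.38) and Etfdh (-0.35) having the smallest adjusted p.

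The counts that follow stand beside 11.8% of all genes tested called lower and 28.4% called higher. Of 13 genes that feed or drain the intermediates of the cycle, 7 were called lower and 2 higher (median log2 fold change -0.28). Of the 2 called higher, Gpt2 lost its call in 8 of 22 alternative settings, both rescalings included. Got1, which links oxaloacetate to aspartate in the cytosol, fell from 186.7 ± 3.66 to 150.9 ± 3.93 FPKM (-0.31 on the log2 scale, adjusted p = 1.71e-05), and Mmut, which brings propionate carbon in as succinyl-CoA, from 14.4 ± 0.540 to 10.8 ± 0.400 FPKM (-0.41 on the log2 scale, adjusted p = 3.17e-05). Mitochondrial phosphoenolpyruvate carboxykinase (Pck2) rose, with a log2 fold change of 0.42. Of 11 genes for cofactors and assembly of the enzymes, 4 were called lower and 0 higher (median -0.11), and the complex II assembly factor Sdhaf1 fell most among the named ones (log2 fold change -0.44). Of 17 genes of glycolysis, 7 were called lower and 2 higher, with a median of -0.04. Of the 2 called higher, Pkm lost its call in 11 of 22 alternative settings and Pfkl in 1. The muscle forms Eno3 (log2 fold change -1.01) and Pgam2 (-0.99) fell.

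**Figure D4:**
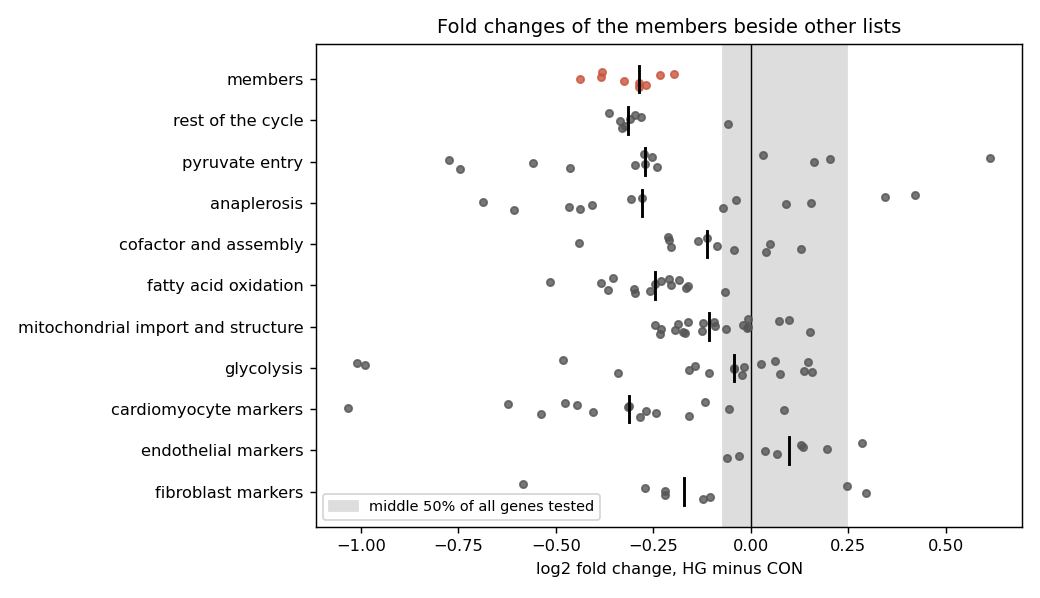
Log2 fold changes (HG minus CON, horizontal axis) of single genes, grouped by list, with the 9 enzymes in red and other lists in grey. Black lines are list medians and the grey band holds the middle 50% of all genes tested. All 9 enzymes lie left of the band, and the medians run from -0.32 for the rest of the cycle to 0.10 for endothelial markers.

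Markers of cell types were called in both directions, and over all genes tested 11.8% were called lower and 28.4% higher. Of 15 cardiomyocyte markers, 11 were called lower and 0 higher (median -0.31 on the log2 scale, -0.14 when quantile normalized), and their summed level was between 34180 and 35820 FPKM in CON and between 27700 and 31460 FPKM in HG. The fall was largest for Myh6 (log2 fold change -1.03), the alpha heavy chain of myosin. Fibroblast markers had 4 lower and 2 higher of 8 (summed 1724 to 2010 FPKM in CON, 1556 to 1785 in HG), endothelial markers 0 lower and 3 higher of 8 (288.4 to 313.3 and 299.7 to 327.4), mural cell markers 3 lower and 0 higher of 7 (175.9 to 212.0 and 157.2 to 193.8), macrophage markers 1 lower and 3 higher of 8 (29.2 to 36.5 and 33.6 to 44.2) and epicardial markers 1 lower and 1 higher of 6 (19.5 to 22.7 and 22.7 to 28.5). Red cell markers had 10 lower and 3 higher of 16 (10600 to 20030 and 8357 to 11710), and the 4 liver markers tested were all lower (3.12 to 73.0 and 0.921 to 2.40), the highest sum being that of CON 3. Of these liver markers, Alb lost its call in 15 of 22 alternative settings, Apoa1 in 14 and Afp in 2, and the lung markers listed were not tested. The endothelial marker Tie1, called higher, lost its call in 1 of the 22, and the epicardial marker Upk1b, called lower, in 5. Of the markers found, those below the filter included, none was at 0 in every library. The part of cell composition in the fall of the 9 enzymes was not tested. With the hemoglobin genes left out of the library totals, the 9 log2 fold changes were between -0.41 and -0.18, and with CON 3 left out between -0.43 and -0.19.

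The enzymes were also set against genes of mitochondrial import and structure in the same library. Of 20 such genes, 11 were called lower and 1 higher, with a median log2 fold change of -0.11. The shares over all genes tested were 11.8% lower and 28.4% higher. Against the mean log2 level of these 20 in the same library, 7 of the 9 enzymes were lower without overlap, by -0.35 (Ogdh), -0.29 (Dlst), -0.29 (Mdh2), -0.23 (Idh3g), -0.20 (Cs), -0.20 (Idh3a) and -0.18 (Idh2) on the log2 scale (exact permutation test, adjusted p = 0.0217 each). The share of all genes that lie below these 20 without overlap is not given, so that the count of 7 has no background beside it. Sucla2 differed by -0.14 (adjusted p = 0.0916) and Suclg1 by -0.11 (adjusted p = 0.0595), and neither passed the exact permutation test. With CON 5 left out Sucla2 passed at -0.19, and with HG 3 left out Suclg1 passed at -0.13 (exact permutation test, adjusted p = 0.0217 each).

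Relative to the cardiomyocyte markers of the same library the picture was another one. The differences ran from -0.09 for Ogdh (exact permutation test, adjusted p = 0.143) to 0.15 for Suclg1, with 5 of the other enzymes above 0 (Idh3a, Idh3g and Sucla2 turned below 0 when quantile normalized) and Dlst and Mdh2 below it. Suclg1 passed as higher in HG without overlap (exact permutation test, adjusted p = 0.0217), and the 8 others did not pass. The markers themselves changed unevenly, from -1.03 (Myh6) to 0.08 (Myl4) on the log2 scale. Their mean, and with it the sign of a small difference, depends on which markers are listed. The share of all genes that lie above these markers without overlap is not given. After quantile normalization the difference for Suclg1 was 0.10 (exact permutation test, adjusted p = 0.238), and that for Ogdh was -0.15 and passed as lower (exact permutation test, adjusted p = 0.0433).

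**Figure D5:**
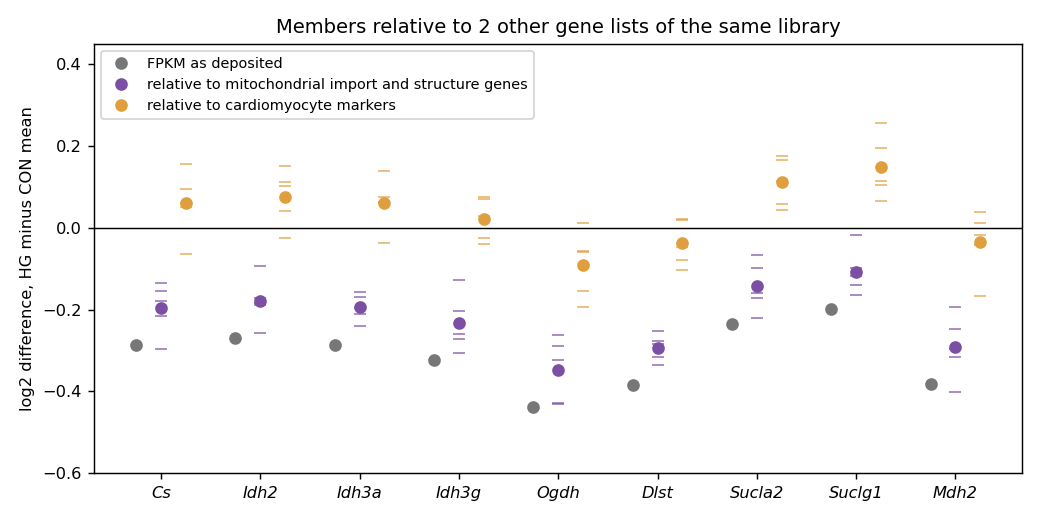
Difference between the HG and CON means on the log2 scale (vertical axis) for each of the 9 enzymes, as deposited (grey), relative to the mean of mitochondrial import and structure genes (purple) and relative to cardiomyocyte markers (orange), each in the same library. Points are group differences and short lines the single HG libraries minus the CON mean. The purple points lie between -0.35 and -0.11, and the orange points between -0.09 and 0.15.

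The scale of all values depends on how the libraries were normalized. As deposited, 70.7% of the genes called were higher in HG, against 47.1% when scaled by median-of-ratios factors and 53.0% when quantile normalized. Under these scalings 2551 and 2317 genes were called lower. The median log2 fold change of all genes was then 0.01 and 0.02, and that of the 9 enzymes -0.38 and -0.26. The reads on genes numbered 17639895 to 18240006 per CON and 16672876 to 19109844 per HG library, with 16041 to 16313 genes above 0.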

How the data were processed

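The study made 5 CON and 5 HG libraries of fetal hearts with a stranded mRNA kit. The authors deposited FPKM, that is reads divided by gene length and library size. The submitters' processing notes name fastp, HISAT2, HTSeq, R 3.2.0 and the build mRatBN7.2, without their roles or settings. All per-library columns were used (0 left out).

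FPKM steps gave whole reads for 100% of genes (tolerance 0.05 reads), which set the depth. Genes averaging 0.1 FPKM or more entered limma 3.58.1 as log2(FPKM + 0.1) (R 4.3.3, linear model with a trend on expression, no covariate), with Benjamini-Hochberg adjustment over the 14542 genes. Calls needed an adjusted p under 0.05, and the size threshold of the study's methods (absolute log2 fold change above 1) was counted separately. The methods name DESeq, which needs counts and was not used. Fold changes on this scale understate those of low genes. Log2 ratios within a library were put to a two-sided exact permutation test (252 divisions, smallest p 0.00794), adjusted over 30 ratios. Python 3.11.15, numpy 2.4.6, pandas 2.3.3, scipy 1.17.1 and matplotlib 3.10.9 were used, and the model was tested on simulated data.

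The 9 enzymes and the gene lists were chosen with earlier results of these data known, so no test over a list is given. Named were the enzymes, the rest of the cycle and its isoenzymes, genes chosen from the 2 smallest adjusted p per direction in other lists or from those past the size threshold, and the 5 genes of nearest course. Pdk3, Esrra, Esrrb and Esrrg were named in addition to this rule, and the counts over alternatives leave them out. Of the genes listed by hand, 4 were not found, and some are not reported here. Promoters were those of RefSeq on GRCr8, searched for exact motif matches on both strands. Alternatives were a pseudocount of 1 or 0.01, a filter at 1 FPKM or none, median-of-ratios factors, quantile normalization, no hemoglobin genes, no trend, array weights, a replicate block, voom on recovered reads, ratios of mean FPKM and each of the 10 libraries left out. The ratios of mean FPKM kept the p-values of the main fit, so that no call could be lost there.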

Additional observations from a re-analysis of the deposited data

Results flagged for a closer look

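Single libraries stood far from the other 4 of their group in 5 of the 106 groups of values examined, and chance alone gives about 1 in 20. Sdha was at 263.9 FPKM in HG 5, against 289.2 to 294.6 in the other HG libraries. Sdhd was at 295.3 FPKM in HG 4, against 264.4 to 270.3 in the others. Aco1 was at 24.18 FPKM in HG 4, against 25.35 to 25.74 in the others. Ogdhl was at 10.42 FPKM in CON 4, against 7.576 to 8.077 in the other CON libraries. The level of Ogdh relative to mitochondrial import and structure genes was 0.8252 on the log2 scale in CON 2, against 0.9159 to 0.949 in the other CON libraries.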

How the results depend on the processing

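All 9 enzymes were called lower in each of the 22 alternatives, with log2 fold changes from -0.53 (Ogdh, median-of-ratios factors) to -0.14 (Suclg1, quantile normalization) and a highest adjusted p of 0.0105 in limma (Sucla2). The alternative of ratios of mean FPKM changed the fold changes alone and could not change a call. The number of genes called higher over all genes was 4127 and became 2271 under median-of-ratios factors and 2615 when quantile normalized, while the 1709 called lower became 2551 and 2317, and the former also added Suclg2 as lower. No called gene of the naming rule, and no called ratio, changed the sign of its difference. With the replicate block, 9 enzymes were lower, beside 1530 genes lower and 3566 higher in all. Libraries of the same number deviated together with correlations from -0.21 to 0.21 and none was nearest to its own number. No pairing by number was thus seen, though these correlations cannot exclude one. No blocked test of ratios was made, since 5 pairs cannot give an exact p below 0.0625. Among the genes of the naming rule, 12 lost their call in at least 1 alternative, none of them an enzyme of the cycle. Each enzyme had at least 2954 reads in a library, and 5 libraries a group set the width of the intervals. The causes of these changes were not tested.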
